A study of Mus musculus with 10 samples.

Results

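The serum shift of polyribosome loading was the change, between serum-treated and starved mouse embryonic fibroblasts, in how the mRNA of each gene was divided between polyribosomes and the lighter part of a sucrose gradient. It was taken from 8 of the 10 arrays of the series, which are all the gradient arrays, 2 in each of 4 groups. The cells were primary fibroblasts from embryos of age e14.5 on a C57/BLACK6 background with the genotype ATF1 +/-, which all groups shared, so no wild-type cells stand beside them. All cultures were starved for 48 h in 1% dialyzed fetal bovine serum. The serum-treated groups were then given 10% serum for 2 h, and the starved groups stayed in 1% for that time. From each state came polyribosome RNA, carried by more than 1 ribosome per mRNA, and undertranslated RNA, carrying no ribosome, a ribosomal subunit or 1 ribosome. Replicate 2 of every group also received 200 uM of 4-thiouridine, a nucleoside taken up into new RNA, and 1 uCi of 3H-cytidine, and replicate 1 received neither. All gradient cultures had 100 ug/ml of cycloheximide, which holds ribosomes on mRNA, for 30 min before lysis, and gradients ran through 15% to 50% sucrose. Fractions of several biological and technical replicates were pooled before hybridization, so the p-values below rest on differences between pools of a group, some of which can be technical. The genotype was not checked, since the probe set for Atf1 here also names a pseudogene.

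An mRNA that is translated actively carries several ribosomes and sinks deep into such a gradient, while an mRNA that is stored, repressed or newly exported stays near the top. Growth factors in serum act through the mTOR and MAP kinase pathways on initiation factors, and so can move mRNAs onto ribosomes without a change in their amount. The best known case is the family of 5′ TOP mRNAs, which encode ribosomal proteins and translation factors, start with a C and a run of pyrimidines, and are held back in starved cells. Other known cases are mRNAs with upstream reading frames, iron-responsive elements or structured leaders.

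Loading here means the log2 level in polyribosome RNA minus that in undertranslated RNA of the same replicate number. The labels do not state whether same-numbered polyribosome and undertranslated pools came from the same cultures, so the loadings per pair, and each count of loadings that do or do not overlap, rest on the number alone. The interaction is the mean loading of serum-treated cells minus that of starved cells, so a positive value is a shift toward polyribosomes after serum. Levels are log2 intensities after quantile scaling, which gives every array the same distribution. A level therefore ranks a gene within its pool, and neither the total amount of RNA in a pool nor the number of cells and the RNA per cell can be told apart in it. No probe set passed the test for an interaction among 9316 (limma, Benjamini-Hochberg at 0.05, 0 called, which is 0%). The smallest adjusted p was 0.442. At an unadjusted p under 0.05 there were 721 probe sets, or 7.74%, of which 443 (4.76%) lay toward polyribosomes and 278 (2.98%) away from them. That balance depended on the filter and the scaling. Among the 3781 probe sets above background on all 8 arrays, from which the leading genes below were taken, 142 lay toward polyribosomes and 166 away, and with hybridization control scaling 106 of all probe sets lay toward and 260 away. All genes named below are therefore described by their values, and none of their shifts passed.

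The middle of the distribution lay close to 0, with a median interaction of 0.07, quartiles of -0.56 and 0.67 and 5th and 95th percentiles of -1.56 and 1.76 on the log2 scale. The error was of similar size, with a median SE of 0.73 over all probe sets tested and 0.53 over the 3781 probe sets above background on all 8 arrays. The undertranslated arrays were dim, with median intensities of 5.7 and 8 in serum-treated and 7.6 and 8.8 in starved cells, against 45.3 to 54.3 on the 4 polyribosome arrays. Most of the error came from there. The median SD between replicates was 0.20 in serum-treated and 0.20 in starved polyribosome RNA, against 0.56 in serum-treated and 0.34 in starved undertranslated RNA. Arrays of the 2 replicate numbers share no sample, so their interactions could be set side by side. Across the 3781 brighter probe sets they correlated at r = 0.324 and had the same sign in 63.7%. Across all 9316 they correlated at 0.125 and had the same sign in 58.2%. These are correlations across probe sets, which are not independent replicates. In 4 equal groups of probe sets by mean level, in order of brightness, the correlation was 0.0143, 0.0996, 0.21 and 0.31, and the median interaction was -0.18, -0.03, 0.11 and 0.22.

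**Figure D1:**
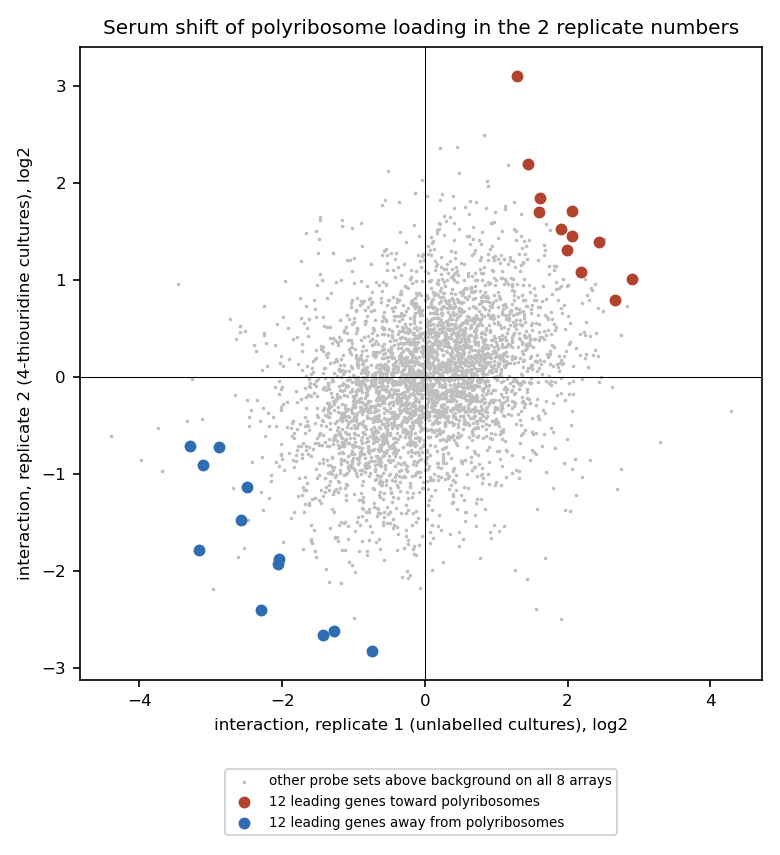
Each point is a probe set above background on all 8 arrays, with its log2 interaction in replicate 1 on the x axis and in replicate 2 (4-thiouridine cultures) on the y axis. Grey points form a broad cloud (r = 0.324), and the 12 leading genes of each direction, which were chosen from these values, lie in the upper right and lower left corners.

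To name genes, 1 probe set per gene was taken among those above background on all 8 arrays, with an unadjusted p under 0.05 and with both loadings of serum-treated cells above, or both below, those of starved cells. Of 2980 such genes, 103 qualified toward polyribosomes and 67 away from them. The 12 with the largest interaction in each direction are called the leading genes. They were chosen by this interaction, so their values describe it and add no support to it.

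Among the leading genes toward polyribosomes Gadd45b, a stress and growth-arrest sensor that binds MAP kinase kinases, had log2 levels of 9.90 and 10.38 in serum-treated polyribosome RNA, 7.79 and 7.55 in serum-treated undertranslated RNA, 8.65 and 9.0 in starved polyribosome RNA and 7.97 and 8.37 in starved undertranslated RNA. Both serum-treated polyribosome arrays were the highest of the 8, and both serum-treated undertranslated arrays the lowest, so the groups did not overlap. Its loading was 2.12 and 2.83 in serum-treated cells, against 0.68 and 0.63 in starved cells. The interaction of Gadd45b was 1.82 ± 0.38 (SE, 2 arrays per group; limma unadjusted p = 0.00123, adjusted p = 0.442), the smallest p of the leading genes. A dimmer probe set of Gadd45b gave 0.86.

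The largest interaction was that of Pts, an enzyme of tetrahydrobiopterin synthesis, at 2.20 ± 0.55 (limma adjusted p = 0.481). Its polyribosome levels were 6.89 and 7.15 in serum-treated cells and 6.90 and 6.81 in starved cells, while its undertranslated levels were 5.99 and 5.45 in serum-treated and 7.29 and 8.23 in starved cells. The polyribosome levels were close to each other, and the undertranslated levels of the serum states were well apart. The deposited intensities behind the undertranslated levels of Pts were 12 and 13.8 in serum-treated cells, just above the array backgrounds of 7.1 and 9.6, against 39.2 and 96.6 in starved cells with backgrounds of 6.7 and 7.7.

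Nrp1, a co-receptor of semaphorins and VEGF, showed the same form, with loadings of 2.54 and 1.39 in serum-treated cells and -0.37 and 0.38 in starved cells. Nup54, a protein of the nuclear pore channel, had loadings of 1.73 and 0.83 in serum-treated cells and -0.71 and -0.57 in starved cells. For Nup54 every serum-treated pair lay on the polyribosome side of 0 and every starved pair on the undertranslated side, as in 5 of the 12 leading genes. Gjb2, the gap junction protein connexin 26, was another of these, with loadings of 1.24 and 1.01 in serum-treated cells against -0.82 and -0.44 in starved cells. Spag7 stood at 1.03 and 1.27 in serum-treated and -0.59 and -0.57 in starved cells, and Fbxw2, a substrate adaptor of ubiquitin ligases, at 1.41 and 1.23 in serum-treated and -0.20 and -0.47 in starved cells. In these genes both starved pairs lay below 0 and both serum-treated pairs above it.

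Other leading genes were on the polyribosome side in both states or close to it. Igfbp3, which binds insulin-like growth factors, had the highest loading of the 12, at 4.27 and 2.65 in serum-treated and 1.60 and 1.85 in starved cells. Atp6v0e, a subunit of the vacuolar proton pump, had loadings of 3.06 and 2.37 in serum-treated and 1.00 and 0.66 in starved cells. Fyn, a kinase of the Src family, stood at 2.36 and 2.21 in serum-treated and 0.37 and 0.90 in starved cells. Loadings of Hnrnph3, a splicing regulator, were 1.99 and 0.67 in serum-treated and 0.08 and -0.86 in starved cells, the narrowest gap between states among the 12 along with that of Igfbp3. Idi1, an isomerase of the isoprenoid pathway that leads to cholesterol, had loadings of 2.66 and 1.29 in serum-treated and 0.47 and 0.21 in starved cells.

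**Figure D2:**
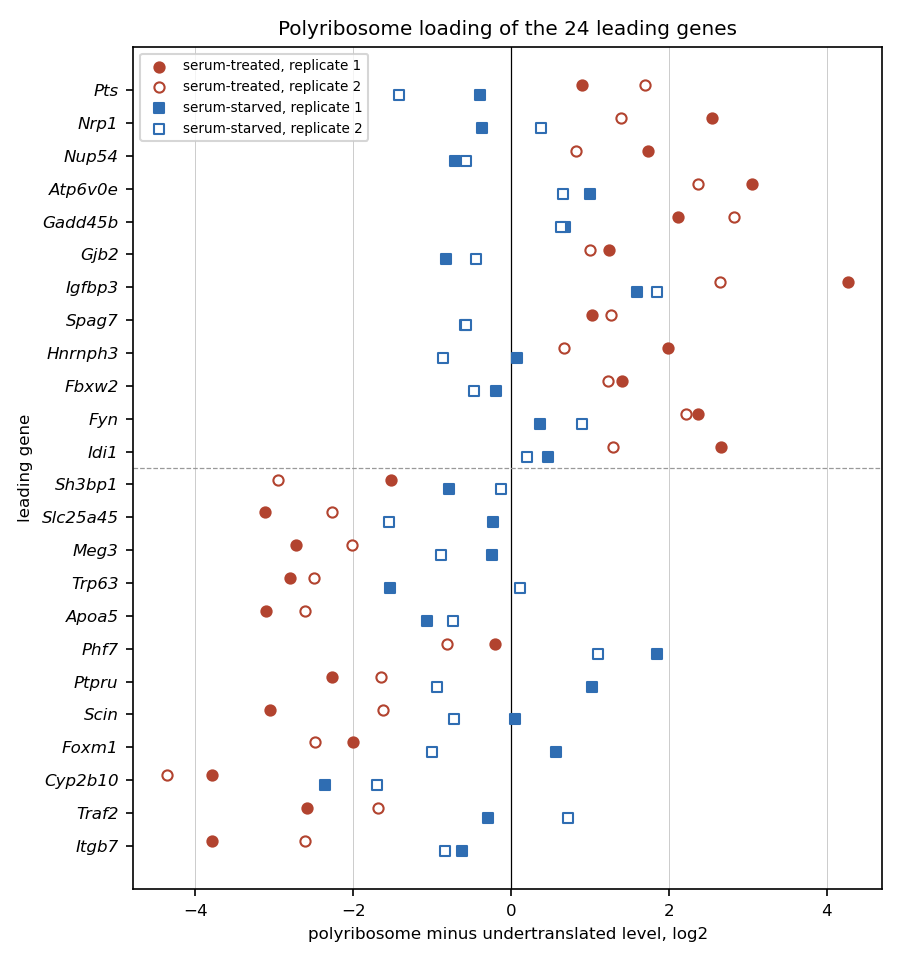
Loading, the log2 polyribosome minus undertranslated level, of the 24 leading genes, with 1 row per gene and 1 symbol per replicate pair. Circles (serum-treated) lie right of squares (starved) in the upper 12 genes and left of them in the lower 12, as the rule that chose them requires, and Nup54, Gjb2, Spag7 and Fbxw2 are among those whose circles and squares lie on opposite sides of 0.

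Away from polyribosomes Itgb7, an integrin chain of lymphocytes, had the most negative interaction, at -2.47 ± 0.76 (limma adjusted p = 0.543). Its log2 levels were 4.40 and 3.99 in serum-treated polyribosome RNA, 8.19 and 6.60 in serum-treated undertranslated RNA, 4.94 and 5.11 in starved polyribosome RNA and 5.57 and 5.94 in starved undertranslated RNA. The serum-treated undertranslated arrays were the highest and the serum-treated polyribosome arrays the lowest. In deposited intensities its undertranslated values were 34.7 and 24.8 in serum-treated and 14.7 and 21 in starved cells, a smaller gap than that of the scaled levels.

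Traf2, an adaptor of tumour necrosis factor receptors, had loadings of -2.59 and -1.68 in serum-treated and -0.29 and 0.72 in starved cells. Foxm1, a transcription factor of mitotic genes, stood at -2.01 and -2.48 in serum-treated and 0.57 and -1.0 in starved cells. The starved pairs of Foxm1 were far apart, on either side of 0. Phf7, a PHD finger protein known from the testis, was the 1 gene here whose loading changed side in every pair, with -0.21 and -0.81 in serum-treated and 1.85 and 1.11 in starved cells. Both other probe sets of Phf7 were negative too, at -1.74 and -0.80.

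Cyp2b10, a cytochrome P450 of liver, had loadings of -3.79 and -4.36 in serum-treated and -2.36 and -1.70 in starved cells. Apoa5, an apolipoprotein of liver, had -3.11 and -2.61 in serum-treated and -1.06 and -0.74 in starved cells. Trp63, a p53 relative of stratified epithelia, had -2.80 and -2.50 in serum-treated and -1.53 and 0.12 in starved cells. These 3 genes lay on the undertranslated side in nearly every pair, and their deposited undertranslated intensities were low, between 20.7 and 42.3 in serum-treated and between 8.4 and 24.3 in starved cells. Meg3, an imprinted RNA that encodes no protein, had loadings of -2.72 and -2.02 in serum-treated and -0.24 and -0.89 in starved cells. A dimmer probe set of Meg3 stood at an interaction of -0.30. The remaining leading genes were Scin, an actin-severing protein, at an interaction of -2.01, Ptpru, a receptor phosphatase, at -2.0, Slc25a45, a mitochondrial carrier, at -1.80, and Sh3bp1 at -1.78. Each had unequal values in the replicate pairs, with -3.10 and -0.91 for Scin, -3.29 and -0.71 for Ptpru, -2.88 and -0.72 for Slc25a45 and -0.74 and -2.82 for Sh3bp1.

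The interaction is also the serum difference in polyribosome RNA minus the serum difference in undertranslated RNA, and so can come from either fraction. In 9 of the 12 leading genes toward polyribosomes the undertranslated difference was the larger part, and in all 12 leading genes away from them. Among all that qualified this held for 94 of 103 and 65 of 67. The share over all genes was not counted. Serum differences were wider in undertranslated RNA over all 3781 probe sets above background on all 8 arrays. Their SDs across probe sets were 0.92 and 0.65 in replicates 1 and 2, against 0.40 and 0.38 in polyribosome RNA. Nup54, for example, differed with serum by 0.13 ± 0.32 (SE) in polyribosome RNA and by -1.79 ± 0.32 in undertranslated RNA. Traf2 differed by -0.33 ± 0.43 in polyribosome RNA and by 2.01 ± 0.43 in undertranslated RNA. These SEs, and those of such differences below, come from a variance pooled over all groups, so they are equal in both fractions. Since the median SD between replicates was higher in undertranslated RNA, a pooled SE tends to be too small there. In polyribosome RNA it tends to be too large. Signs of RNA quality differed between the serum states in undertranslated RNA. Control probe sets at the 3′ end of Actb exceeded those at its 5′ end by factors of 23.6 and 33.9 on the serum-treated and 137 and 61.4 on the starved undertranslated arrays, and those of Gapdh by 3.70 and 4.53 on the serum-treated and 5.64 and 6.81 on the starved ones. The share of probe sets above background was 43.4% and 44.9% on the serum-treated and 53.3% and 53.5% on the starved undertranslated arrays. The part of these differences in the interaction was not tested.

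A smaller group differed mainly in polyribosome RNA, where the replicate spread was lowest. It held 9 of the 103 genes toward polyribosomes and 2 of the 67 away from them, and was singled out after the values were seen. Gadd45b differed with serum by 1.32 ± 0.27 in polyribosome RNA and by -0.50 ± 0.27 in undertranslated RNA. In cytoplasmic RNA, which has 1 array per state and no replicate, it differed by 1.63. Its relative Gadd45g had loadings of 2.99 and 2.83 in serum-treated and 2.04 and 1.48 in starved cells, with a polyribosome difference of 0.66 and a cytoplasmic difference of 1.49. For both stress sensors the level was thus higher after serum in the polyribosome and cytoplasmic pools and lower in the undertranslated pool.

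Cebpb, a transcription factor of the early growth response whose mRNA holds an upstream reading frame, had polyribosome levels of 7.60 and 7.68 in serum-treated and 5.73 and 6.41 in starved cells. Its undertranslated levels were 6.12 and 6.36 in serum-treated and 5.79 and 5.94 in starved cells. The gap between the states was wide in polyribosome RNA and narrow in undertranslated RNA, and both ran the same way. The interaction of Cebpb was 1.20 ± 0.49 (limma adjusted p = 0.624). Gjb2 had the widest polyribosome difference of the group, at 1.94 ± 0.48, beside 0.18 ± 0.48 in undertranslated RNA and 2.33 in the cytoplasmic pair.

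The other genes of this kind had smaller values. Loadings of Sertad1, a cell cycle and transcription cofactor, were -1.33 and -1.03 in serum-treated and -2.31 and -2.28 in starved cells. Its scaled level was thus the higher one in undertranslated RNA in both states, which does not tell where most of the mRNA lay. Foxc2, a forkhead factor of mesenchyme, had loadings of 0.31 and 0.43 in serum-treated and -0.95 and -0.71 in starved cells. Fermt2, an integrin activator at focal adhesions, had 2.23 and 1.96 in serum-treated and 0.77 and 1.00 in starved cells, and Cdc42se1, an effector of the GTPase Cdc42, had 0.43 and -0.40 in serum-treated and -0.93 and -0.93 in starved cells. In all 4 the serum-treated pairs lay above the starved ones. The 2 genes away from polyribosomes were Lamp1, a lysosomal membrane protein, at -0.66 ± 0.26, and Tmod3, which caps actin filaments, at -1.37 ± 0.50. Loadings of Lamp1 were 2.37 and 2.93 in serum-treated and 3.24 and 3.38 in starved cells, and under scalings without quantiles its interaction, taken relative to the median of all probe sets, had the opposite sign.

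**Figure D3:**
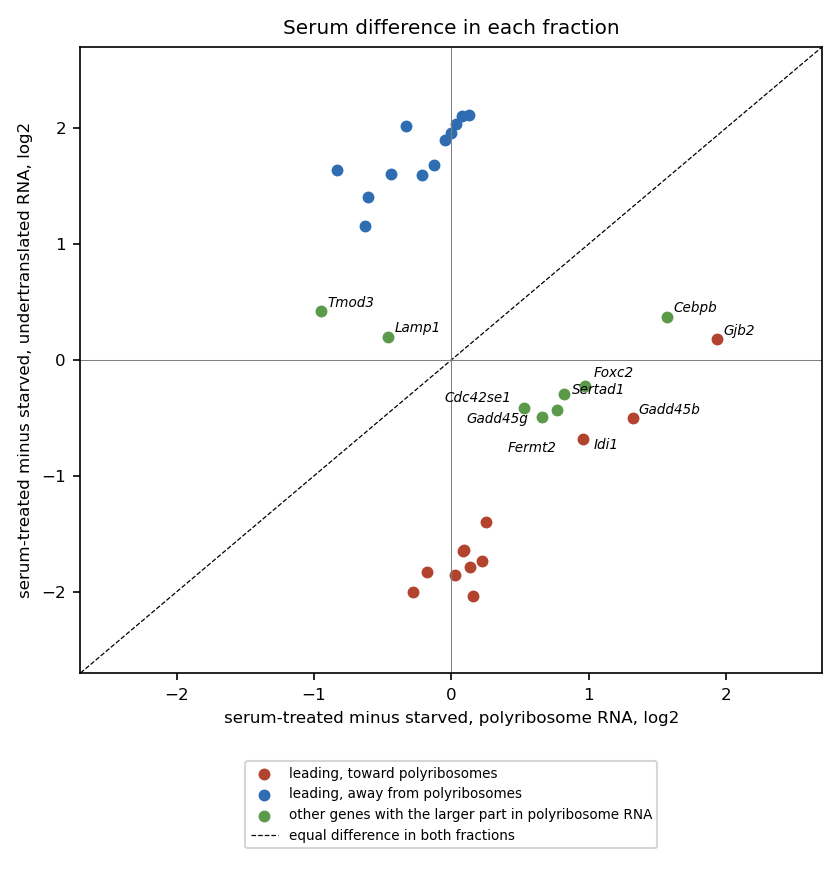
Serum difference (serum-treated minus starved, log2) in polyribosome RNA on the x axis and in undertranslated RNA on the y axis for the 24 leading genes and the 8 other qualifying genes whose larger part lay in polyribosome RNA. Most leading genes lie within 1 of 0 on the x axis and beyond 1 in size on the y axis, while Gadd45b, Gjb2 and Cebpb lie right of 1 on the x axis.

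Ribosomal protein mRNAs and the other 5′ TOP mRNAs were examined next, as the mRNAs best known to move onto ribosomes with serum. Of 79 listed cytoplasmic ribosomal protein genes, 32 had a probe set of their own here and 29 passed the filter on level. None of the 29 passed the test. Their median interaction was 0.34, against 0.09 for all 6767 genes tested, with 21 positive and 8 negative. At an unadjusted p under 0.05 there were 2 toward polyribosomes and 0 away, against 5.04% and 2.65% of all genes. The loadings of the serum states did not overlap in 15 toward polyribosomes and in 2 away from them, or 51.7% and 6.9% of the list, against 21.6% and 17.7% of all genes tested. The median was 0.39 in replicate 1 and 0.21 in replicate 2. Ribosomal protein mRNAs are among the most abundant, and the brightest of the 4 groups of probe sets by level had a median of 0.22.

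The 2 members with the largest interaction above background on all arrays were Rpl13a and Rpl8, both of the large subunit. Rpl13a had loadings of 0.60 and 0.93 in serum-treated and -0.80 and -0.35 in starved cells, with an interaction of 1.34 ± 0.52 (limma unadjusted p = 0.0308, adjusted p = 0.617). Its polyribosome levels were 8.36 and 9.16 in serum-treated and 7.81 and 8.55 in starved cells, and its undertranslated levels were 7.75 and 8.24 in serum-treated and 8.61 and 8.90 in starved cells. Polyribosome levels overlapped between the states and undertranslated levels did not. Rpl8 was on the polyribosome side in both states, with loadings of 5.12 and 4.61 in serum-treated and 3.88 and 3.41 in starved cells. At the other end Rps29, of the small subunit, had loadings of -2.01 and -1.36 in serum-treated and -0.88 and -1.0 in starved cells, an interaction of -0.75 ± 0.56. Rpl41 had an interaction of -0.16 ± 0.31, which had the opposite sign under scalings without quantiles.

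Of 18 other 5′ TOP mRNAs, 15 were tested and none passed. Their median interaction was 0.30, with 10 positive and 5 negative and with 6 whose loadings did not overlap toward polyribosomes and 2 away, or 40% and 13.3% against 21.6% and 17.7% of all genes tested. Eef1a1, the elongation factor that brings tRNA to the ribosome, had loadings of 0.75 and 0.62 in serum-treated and 0.32 and 0.25 in starved cells. Its scaled level was 13.03 on all 4 polyribosome arrays, at the top of the common distribution, so its interaction of 0.40 ± 0.15 (limma unadjusted p = 0.0305, adjusted p = 0.617) rests on undertranslated levels of 12.28 and 12.40 in serum-treated and 12.71 and 12.77 in starved cells. The deposited intensities of Eef1a1 were 12157 and 10580 in serum-treated and 11203 and 10773 in starved polyribosome RNA, and 1659 and 3846 in serum-treated and 6374 and 7272 in starved undertranslated RNA. Polyribosome intensities overlapped between the states, and undertranslated ones were lower in both serum-treated pools.

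Tpt1, the translationally controlled tumour protein, had loadings of -0.29 and -0.10 in serum-treated and -0.67 and -0.38 in starved cells, an interaction of 0.33 ± 0.20. Pabpc1, the poly(A) binding protein, stood at 0.30 ± 0.36, Npm1, a nucleolar chaperone of ribosomes, at 0.18 ± 0.22, Eif4b, an initiation factor, at 0.74 ± 0.53, and Eif3e, another, at 0.74 ± 0.50. Eef2, the translocation factor, stood at 0.07 ± 0.65 and Vim, an intermediate filament, at -0.11 ± 0.67. None of these was beyond 2 SE. Eef1b2, an exchange factor for Eef1a1, was the most negative at -1.27 ± 0.69, with loadings of -3.40 and -1.77 in serum-treated and -1.26 and -1.36 in starved cells. A dimmer probe set of the same gene stood at 2.90, so its direction was not settled by these arrays.

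**Figure D4:**
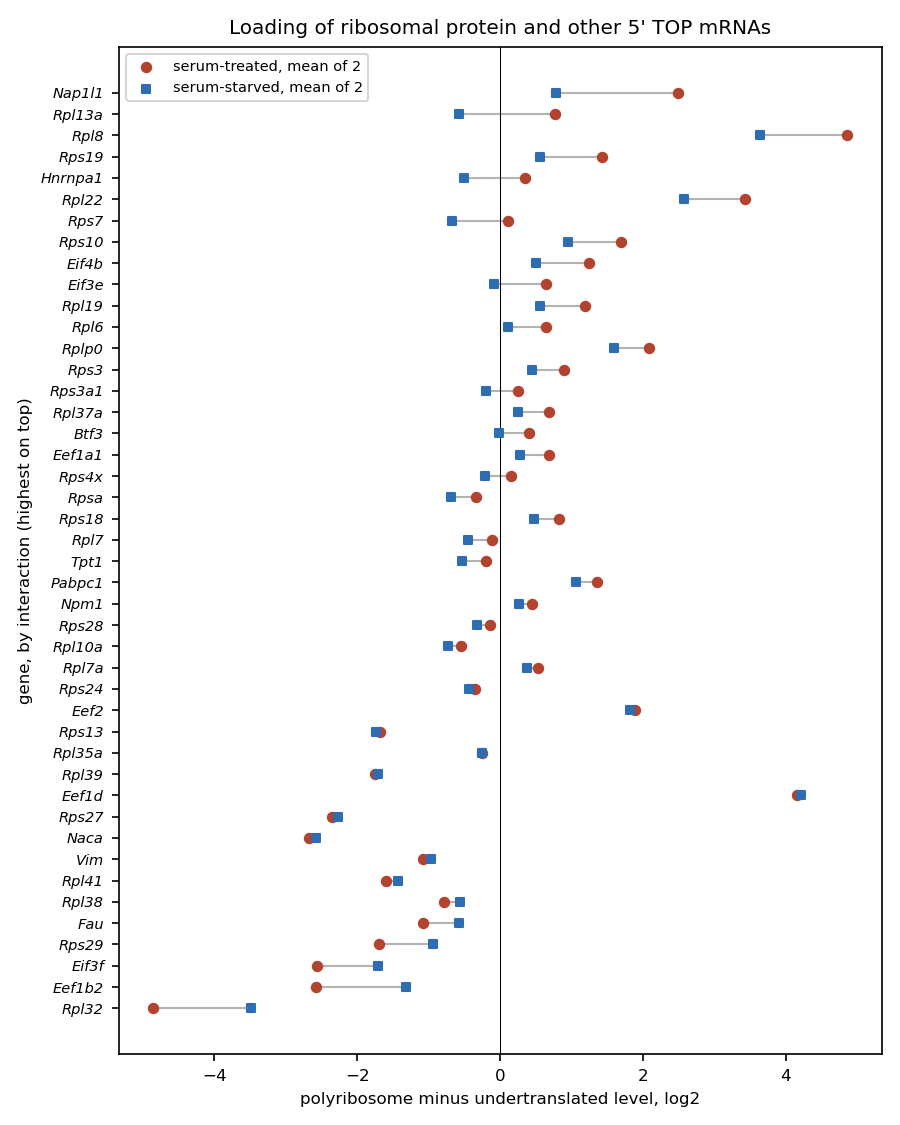
Mean loading (log2 polyribosome minus undertranslated level, 2 pairs each) of serum-treated (circles) and starved (squares) cells for the 29 ribosomal protein and 15 other 5′ TOP genes tested, ordered by interaction with the highest on top. Nap1l1, Rpl13a and Rpl8 show the widest gaps toward polyribosomes and Rpl32 and Eef1b2 the widest away from them, and most other gaps are narrow beside the spread of loadings between genes.

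The TOP element can be read where the annotated start of transcription is exact. Start windows of RefSeq (build GRCm38.p6) were found for 36 of the 44 genes of both lists that were tested. A start was counted as TOP-like where the first transcribed base is C and 4 or more C or T letters follow it, on the strand of the gene, with no other motif searched. Among all 32851 windows 2.51% had such a start. A gene was counted if any of its annotated starts had it. By that rule it was found in 165 of all 5442 genes tested that matched a window. Of the 36 genes of both lists, 8 had it. The starts of these 8 are shown here since they carry the element itself, with 15 bases before the start and 15 from it on, the run in capitals. Eef1a1 and Tpt1 are added as classical TOP mRNAs whose annotated first base does not open such a run, with no capitals.
Nap1l1: ggcgggctctcgggtCTTTTTTagcgccat
Rps10: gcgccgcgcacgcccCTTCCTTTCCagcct
Rps18: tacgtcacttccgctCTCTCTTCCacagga
Rpl35a: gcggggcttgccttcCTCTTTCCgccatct
Rps27: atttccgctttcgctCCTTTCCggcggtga
Rpl38: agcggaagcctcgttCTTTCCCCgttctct
Fau: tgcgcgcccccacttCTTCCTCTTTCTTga
Eif3f: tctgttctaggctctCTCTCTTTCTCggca
Eef1a1: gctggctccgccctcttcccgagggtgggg
Tpt1: gtcaccgctgacgacagttccgggggagcc

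The windows lie at chr10:111473212-111473241 (plus strand) for Nap1l1, chr17:27635230-27635259 (minus) for Rps10, chr17:33955651-33955680 (minus) for Rps18, chr16:33056467-33056496 (plus, 1 of 3 annotated starts) for Rpl35a and chr3:90213634-90213663 (minus) for Rps27. Those of Rpl38, Fau and Eif3f lie at chr11:114668565-114668594, chr19:6057932-6057961 and chr7:108934400-108934429, all on the plus strand. The window of Eef1a1 lies at chr9:78481710-78481739 (minus) and that of Tpt1 at chr14:75845241-75845270 (plus). In the order of the first 8 lines the interactions were 1.71 for Nap1l1, a histone chaperone, 0.74 for Rps10, 0.34 for Rps18, -0.003 for Rpl35a, -0.08 for Rps27, -0.23 for Rpl38, -0.50 for Fau, which encodes the small subunit protein fused to a ubiquitin-like part, and -0.85 for Eif3f, an initiation factor subunit. These 8 spread to both sides of 0, with a median of -0.04. Only Rps10, Rps18 and Rps27 were above background on all 8 arrays. Nap1l1 and Eif3f were above it on 7, Rpl38 and Fau on 6, and Rpl35a on 2, both of serum-treated polyribosome RNA. The replicate values of Nap1l1 were 3.17 and 0.25. The 28 matched genes of the same lists with no such start at the annotated base had a median of 0.38. Over all genes tested, 165 with such a start had a median of -0.04 and 5277 without had 0.10. So the median lay lower, not higher, where the letters of the element were found, a difference that was not tested. The 8 genes with such a start also had a lower median level, 5.41, against 10 for the 28 without, and the median interaction was lower in the dimmer groups of probe sets. The part of level in this difference was not tested. A missing run says only that these letters are not at the annotated first base.

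Growth-factor-induced mRNAs were a further class. Of 35 secreted and extracellular early-response factors tested, of 49 listed, 28 were positive and 7 negative, with a median interaction of 0.50 and with 18 non-overlapping toward polyribosomes and 1 away, or 51.4% and 2.86% against 21.6% and 17.7% of all genes. Their median serum difference was 0.54 in polyribosome RNA and -0.03 in undertranslated RNA. Ereg, the growth factor epiregulin, had polyribosome levels of 7.89 and 6.81 in serum-treated and 6.51 and 5.66 in starved cells, and undertranslated levels of 6.35 and 7.19 in serum-treated and 6.91 and 6.78 in starved cells. Serum-treated polyribosome levels were above both starved ones, while undertranslated levels overlapped. The interaction of Ereg was 1.34 ± 0.68. Fst, the activin antagonist follistatin, had loadings of 2.84 and 1.70 in serum-treated and 1.64 and 0.67 in starved cells, and Tnc, the matrix protein tenascin C, had 1.66 and 0.79 in serum-treated and 0.13 and 0.63 in starved cells.

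Markers of other cell types differed between the serum states beside these factors. Mean log2 levels of the 11 macrophage markers tested, of 14 listed, were 5.88 and 6.37 in serum-treated and 4.94 and 5.0 in starved polyribosome RNA, and 5.01 and 5.57 in serum-treated and 4.67 and 4.40 in starved undertranslated RNA. These means were higher after serum in both fractions, though C1qa, Cd68 and Csf1r were lower in undertranslated RNA, by -0.48, -0.18 and -0.07. The 6 endothelial markers had mean levels of 4.95 and 5.01 in serum-treated and 4.64 and 4.51 in starved polyribosome RNA, and 5.12 and 5.28 in serum-treated and 3.98 and 4.27 in starved undertranslated RNA. Their means too were higher after serum in both fractions, but members differed. In undertranslated RNA Flt1, Kdr and Cd34 were higher and Tek, Eng and Pecam1 lower, the last 3 by -0.76, -0.44 and -0.05. The 6 epithelial markers had means of 3.59 and 3.75 in serum-treated and 3.26 and 3.17 in starved polyribosome RNA. In undertranslated RNA these were 4.44 and 5.12 in serum-treated and 3.99 and 4.30 in starved cells. These means were higher after serum too, though Cldn3 was lower in both fractions. Krt8 and Krt5 were above background on 2 of the 8 arrays. The 3 erythroid markers had means of 3.85 and 3.86 in serum-treated and 3.59 and 3.03 in starved polyribosome RNA. In undertranslated RNA these were 4.50 and 4.18 in serum-treated and 3.64 and 3.92 in starved cells, again with no overlap. Means of the 7 muscle markers overlapped in polyribosome RNA, at 4.01 and 4.51 in serum-treated and 3.87 and 4.44 in starved cells. In undertranslated RNA they were higher after serum, at 4.63 and 4.98 against 4.16 and 4.11, though Actc1, Acta1 and Tnni1 were lower there. Means of the 3 neuronal markers were lower after serum in undertranslated RNA, at 5.04 and 5.56 against 6.18 and 6.49 in starved cells. In polyribosome RNA they were 6.57 and 6.69 in serum-treated and 6.47 and 6.30 in starved cells, with Stmn2 lower after serum. The macrophage markers had a median interaction of 0.50 with 9 of 11 positive, and 4 of 11 were above background on all 8 arrays. The part of these markers in the values of the early-response factors was not tested. The 15 fibroblast markers were all tested and were high throughout, with mean levels of 8.27 and 8.28 in serum-treated and 8.12 and 8.15 in starved polyribosome RNA, and a median interaction of 0.29.

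Of 30 immediate-early transcription factors tested, 23 were positive, with a median of 0.28 and 13 non-overlapping toward polyribosomes and 1 away, or 43.3% and 3.33% against 21.6% and 17.7% of all genes. Junb, a subunit of the AP-1 factor, had loadings of 1.33 and -0.20 in serum-treated and -0.88 and -0.96 in starved cells, an interaction of 1.48 ± 0.79. A second probe set of Junb stood at 1.39. Myc, the growth regulator, had loadings of 2.16 and 0.29 in serum-treated and 0.23 and -0.48 in starved cells, an interaction of 1.35 ± 0.75, and was above background on 7 of the 8 arrays. Replicate 1 gave the larger shift in both. Ier3, an early-response survival factor, stood at 1.28 ± 0.59, with loadings of 2.91 and 1.98 in serum-treated and 1.53 and 0.79 in starved cells. Jun, the partner of Fos in AP-1, lay the other way at -0.94 ± 0.54, with loadings of 0.24 and 1.09 in serum-treated and 1.90 and 1.29 in starved cells, and was the 1 member whose loadings did not overlap away from polyribosomes.

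Of 28 signalling feedback regulators tested, 21 were positive, the median was 0.35, and 12 did not overlap toward polyribosomes and 2 away, or 42.9% and 7.14% against 21.6% and 17.7% of all genes. The list holds Gadd45b, Gadd45g and their relative Gadd45a, which stood at 1.29 ± 0.62 with replicate values of 2.36 and 0.23. Socs3, a feedback inhibitor of cytokine receptors, had polyribosome levels of 6.96 and 6.69 in serum-treated and 6.37 and 5.87 in starved cells and undertranslated levels of 6.39 and 7.23 in serum-treated and 7.61 and 7.52 in starved cells. The states did not overlap in either fraction, and they ran in opposite directions. The interaction of Socs3 was 1.46 ± 0.53 (limma unadjusted p = 0.0229, adjusted p = 0.605), and a dimmer probe set stood at 2.18.

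Of 14 cholesterol synthesis genes tested, 11 were positive, with the highest median of the 28 lists, 0.63, and with 6 non-overlapping toward polyribosomes and 1 away, or 42.9% and 7.14% against 21.6% and 17.7% of all genes. Polyribosome levels were higher after serum by a median of 0.47, and undertranslated levels by 0.01. Undertranslated differences of the members went both ways, from -2.37 for Fdft1, above background on 7 of the 8 arrays, to 0.85 for Nsdhl. Idi1 had polyribosome levels of 9.77 and 9.65 in serum-treated and 8.90 and 8.60 in starved cells, and undertranslated levels of 7.11 and 8.36 in serum-treated and 8.44 and 8.40 in starved cells, with no overlap in polyribosome RNA and a narrow miss in undertranslated RNA. Its interaction was 1.64 ± 0.53 (limma adjusted p = 0.563). Fdps, which makes farnesyl diphosphate, stood at 1.02 ± 0.61, with other probe sets at 2.66 and -1.42. Nsdhl, a sterol dehydrogenase, was the lowest at -0.81 ± 0.48, with other probe sets at 0.18 and 1.32, so its direction differed between probe sets.

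In 3 lists of large assemblies the undertranslated fraction held the larger part of the difference. Of 40 proteasome subunits tested 30 were positive, with a median of 0.51, a median serum difference of -0.04 in polyribosome RNA and one of -0.65 in undertranslated RNA. Psma1, a subunit of the catalytic core, had polyribosome levels of 7.19 and 7.13 in serum-treated and 7.21 and 7.21 in starved cells. Its undertranslated levels were 4.95 and 6.17 in serum-treated and 6.87 and 7.18 in starved cells. The polyribosome levels were alike, and both serum-treated undertranslated levels were below the starved ones, with an interaction of 1.42 ± 0.59. Psma4 stood at 0.95 ± 0.85 with undertranslated levels of 6.43 and 8.74 in serum-treated cells, so 1 array held most of it. Psmb10, an inducible subunit of the immunoproteasome, lay the other way at -1.19 ± 0.60.

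Nuclear-encoded oxidative phosphorylation genes had a median of 0.43 with 46 of 61 positive, and mitochondrial ribosomal proteins a median of 0.36 with 41 of 57 positive. Non-overlapping members were 25 toward polyribosomes and 6 away in the first, and 22 toward and 6 away in the second. As shares these were 41% and 9.84% in the first and 38.6% and 10.5% in the second, against 21.6% and 17.7% of all genes. Their median serum differences were 0.07 and 0.03 in polyribosome RNA, and -0.32 and -0.29 in undertranslated RNA. Sdhb and Sdhc, subunits of succinate dehydrogenase, had nearly equal values, with loadings of 2.95 and 2.67 in serum-treated and 1.55 and 1.66 in starved cells for Sdhb, and of 2.18 and 2.19 in serum-treated and 1.13 and 1.01 in starved cells for Sdhc. Both genes had close replicates and a wide gap between the states. Mrps17 stood at 1.25 ± 0.67, and Mrpl52 had loadings of 0.29 and 0.36 in serum-treated and -0.93 and -0.54 in starved cells. At an unadjusted p under 0.05 lay 8 mitochondrial ribosomal, 5 proteasome and 1 oxidative phosphorylation genes toward polyribosomes, against 5.04% of all genes, so the count for oxidative phosphorylation was below that share. No member of the 3 lists passed the test.

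Lists of other mRNAs known for control at the ribosome had unequal medians. The 26 mRNAs of the integrated stress response, many with upstream reading frames, had a median of 0.28 with 16 positive, close to that of the immediate-early factors. Of these 9 did not overlap toward polyribosomes, or 34.6% against 21.6% of all genes, and 3 of the 26 did not overlap away from them, against 17.7% of all genes. Without serum-treated undertranslated replicate 1 their median was 0.096, corrected for the shift of the median of all probe sets. Atf4, the factor of that response whose own reading frame is guarded by upstream ones, stood at -0.36 ± 0.42, with the opposite sign under scalings without quantiles. The 5 mRNAs with iron-responsive elements had a median of -0.04, and Fth1, the ferritin heavy chain, stood at -0.04 ± 0.32. A dimmer probe set of Fth1, also above background on all 8 arrays, stood at -1.28 ± 0.58. Odc1, the rate-limiting enzyme of polyamine synthesis with a structured leader, stood at 0.03 ± 0.40, beside serum differences of 0.66 in polyribosome and 0.64 in undertranslated RNA. The 5 polyamine genes had a median of 0.03. The mRNA of Ccnd1, the cyclin of G1 phase, had polyribosome levels of 9.94 and 9.68 in serum-treated and 10.63 and 9.84 in starved cells, and an interaction of 0.77 ± 0.54. Actb, a cytoskeletal gene often used as a standard, stood at -0.48 ± 0.38.

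Translation initiation factors had a median of 0.13 over 22 genes, nucleolar ribosome biogenesis genes -0.02 over 35 and DNA replication genes -0.09 over 32. Members whose loadings did not overlap numbered 4 toward polyribosomes and 5 away of 22 initiation factors, and 6 and 7 of 35 biogenesis genes. Both lists were close to the shares of all genes tested, 21.6% toward and 17.7% away. Of 32 replication genes 4 lay toward and 9 away, below the first of these shares and above the second. Rfc2, a subunit of the clamp loader, had loadings of -0.62 and -1.03 in serum-treated and 1.40 and -0.23 in starved cells, and Nop10, of the snoRNP that makes pseudouridine, had -0.92 and -1.76 in serum-treated and -0.33 and -0.27 in starved cells. Actin cytoskeleton genes, targets of serum response factor, had a median of 0.13 over 28 genes. Within them Lima1, an actin-binding protein, stood at 1.39 ± 0.52, with loadings of 3.40 and 2.53 in serum-treated and 2.12 and 1.03 in starved cells, and Fhl2, a LIM cofactor of that factor, at 0.85 ± 0.35, with 1.14 and 1.11 in serum-treated and 0.25 and 0.29 in starved cells. The actin list thus held members far from its median. Starvation and FoxO-linked genes had a median of -0.05 over 23 genes.

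The median was 0.40 for 5 core and linker histones, 0.34 for 16 p53 targets, 0.29 for 29 antioxidant and Nrf2 targets, 0.28 for 19 endoplasmic reticulum chaperones, 0.27 for 26 lysosomal genes, 0.26 for 24 G1 cyclins and cell cycle regulators, 0.24 for 38 fibrillar and matrix genes, 0.24 for 11 tubulins, 0.19 for 38 splicing and hnRNP proteins, 0.15 for 32 interferon-stimulated genes and 0.06 for 15 glycolysis genes. The lysosomal list had 0.60 in replicate 1 and -0.19 in replicate 2, and the matrix list 0.68 and -0.28, so their sign differed between the replicates. Leaving out 1 array turned some of these medians or brought them near 0, in values corrected for the shift of the median of all probe sets. Without serum-treated undertranslated replicate 2 the median of the G1 cyclins was -0.23, that of the actin genes -0.027 and that of the initiation factors -0.024. Without replicate 1 of that group it was -0.071 for interferon-stimulated and 0.012 for matrix genes, and without serum-treated polyribosome replicate 2 it was -0.16 for glycolysis. The polyamine, iron-responsive, ribosome biogenesis and FoxO-linked medians also changed sign with 1 array or another left out. Marker lists of other cell types had medians of -0.79 over 6 endothelial, -0.02 over 6 epithelial, -0.29 over 7 muscle, -0.17 over 3 erythroid and 1.08 over 3 neuronal genes.

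**Figure D5:**
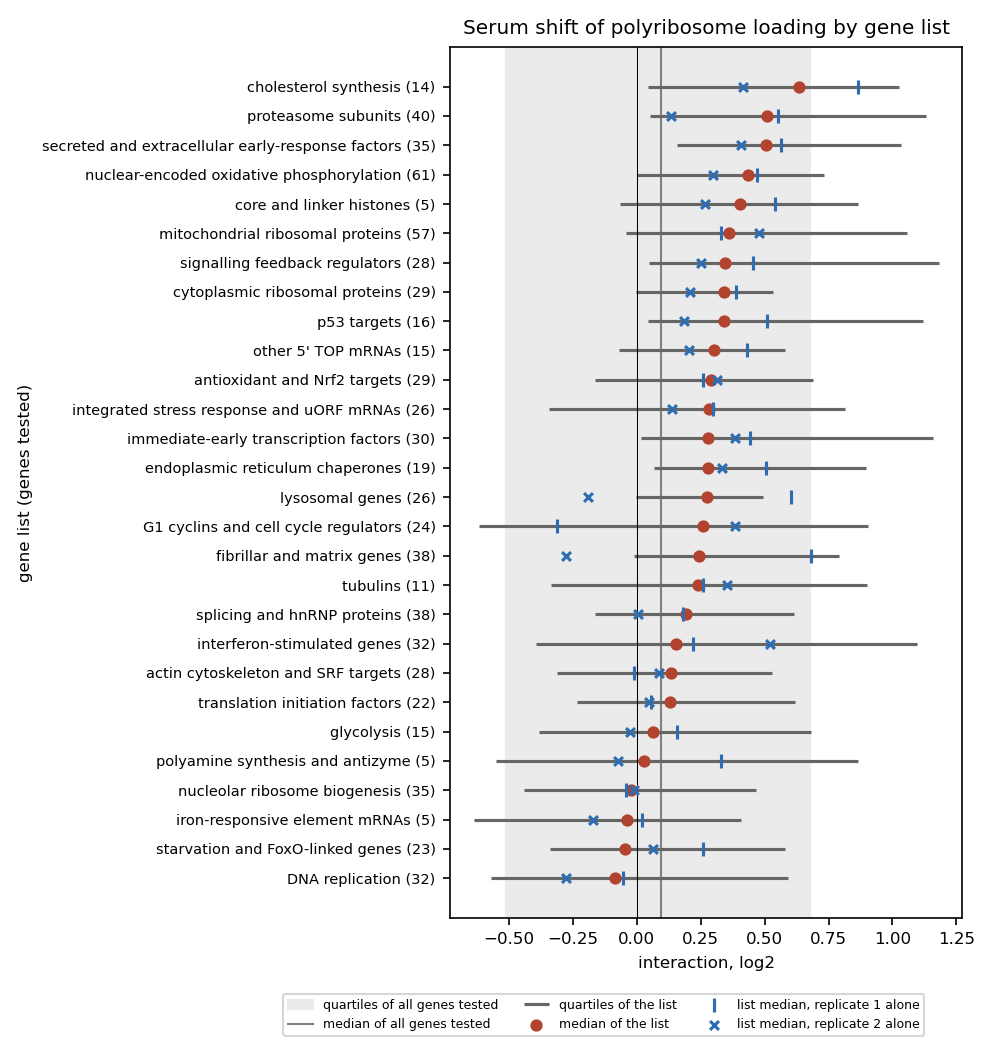
Median interaction (log2, red points) with quartiles (grey lines) of each of the 28 gene lists, with the number of genes tested in brackets, and the medians from replicate 1 alone (blue bars) and replicate 2 alone (blue crosses). The grey band spans the quartiles of all genes tested; all list medians lie inside it, from -0.09 for DNA replication to 0.63 for cholesterol synthesis.

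The outcome of the test depended on the serum-treated undertranslated arrays, and changed most when replicate 2 was left out. That group then rested on replicate 1 alone, the array with the lowest median intensity, 5.7, which is under its background of 7.1. Without serum-treated undertranslated replicate 2 limma called 901 of 9316 probe sets, 719 toward polyribosomes (7.72%) and 182 away (1.95%), with the lone array of that group assumed to vary like the others. Without replicate 1 of the same group it called 2 probe sets (0.0215%, or 0.0296% of genes), Tgs1 and Anapc4, at 4.25 and 4.66, and without any 1 of the other arrays it called none. The leading genes were chosen by their interaction on these same arrays, so their place in either fit adds no support to it. Without replicate 2 of that group their median interaction was 1.95 toward polyribosomes and -2.30 away. Without replicate 1 it was 1.62 toward and -1.72 away. These medians were not corrected for the shift of the median of all probe sets. Many leading genes were among the 901. So were 11 of 40 proteasome, 12 of 57 mitochondrial ribosomal and 8 of 61 oxidative phosphorylation genes toward polyribosomes, against 8.23% of all genes tested (and 1.91% away), and 0 of 29 cytoplasmic ribosomal proteins. Serum-treated undertranslated RNA also had the highest median SD between its replicates, and since replicate 2 of each group is the 4-thiouridine culture, label and pool cannot be told apart.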

How the data were processed

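The authors deposited 1 linear intensity for each probe set and Affymetrix array, and how they summarised and scaled it is not given in the sources used here. Of 12488 probe sets 66 are controls. Among the other 12422 the platform annotation gives 1 gene symbol to 10833, several to 396 and none to 1193, and 10817 matched the reference gene table by Entrez number, which changed 0 symbols. A gene was named from a probe set with no other symbol, the brightest where there were several. Rps6 and Rpl3 had none, and Vegfa did not pass the filter on level.

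A pseudocount of 1.5 (10th percentile of the table) was added before log2, so folds of dim genes are understated. Since median log2 values of arrays were up to 2.95 apart, the 10 arrays were quantile normalized. A filter on mean level at the 25th percentile left 9316 probe sets of 6767 genes. limma 3.58.1 in R 4.3.3 fitted the 4 groups with lmFit and eBayes with a trend (4 residual degrees of freedom). Tests were two-sided, and the fit was tested on simulated data. Background on an array was the highest of 19 control probe sets not spiked in. The number of arrays limits the precision.

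The arrays, the gene lists and the rule by which genes are named were chosen with earlier results of these data known. That rule took the leading 12 genes each way, a fixed set of genes such as Eef1a1 and Atf4, and the 2 highest and 2 lowest members of each list among genes above background on all 8 arrays, of which the text prints a part by size. Replicate numbers are those of the labels, where 4-thiouridine always goes with number 2. Within groups, arrays with the same number deviated together at r = 0.271 for the 2 polyribosome groups and at 0.0135 to 0.0529 for other pairs of groups. So the 2 polyribosome groups shared part of their deviation by number, and the other pairs of groups hardly did. The main fit left such pairing out, and it was kept as an alternative. The 24 alternatives changed scaling, pseudocount, filter, variance model, probe sets per gene, pairing or arrays, or left out 1 array. Start windows were RefSeq's, build GRCm38.p6, and 5442 of the 6767 genes tested matched one.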

Additional observations from a re-analysis of the deposited data

How the results depend on the processing

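The interaction called 0 probe sets in the main analysis and in all 16 alternatives that kept the 8 arrays, with smallest adjusted p-values between 0.267 and 0.976. With the replicate block it called 0, with 798 at an unadjusted p under 0.05 against 721. Leaving out 1 array gave between 0 and 901 calls, the 2 above 0 being those described for serum-treated undertranslated RNA. Of the probe sets at an unadjusted p under 0.05, 61.4% lay toward polyribosomes, against 77.2% of 505 with values as deposited, 78.2% of 795 with median centring and 29% of 366 with hybridization control scaling, which shifted the median of all probe sets by 0.28, 0.16 and -0.10. The share was 46.1% of 308 among probe sets above background on all 8 arrays. Values below are relative to the shift of the median of all probe sets in each alternative. Of 109 genes examined, 100 kept their direction in the 24 alternatives. Not all of the 24 could change it. Fits without a variance trend, with the replicate block, with loading differences or with all 10 arrays return the same estimates. Other filters only shift the median. Many of these genes were chosen by their interaction, so the count adds no support to it. With values as deposited, median centring and hybridization control scaling, which differ only by such shifts, Atf4 stood at 0.22, Fth1 at 0.72, Rpl41 at 0.52 and Lamp1 at 0.34. Other filters turned Fth1 to 0.032 (no filter) and 0.023 (all arrays above background), Eef2 to -0.011 and Odc1 to -0.050 (50th percentile). With 1 array left out, the lowest and highest values were -0.31 and 0.24 for Fth1, -0.16 and 0.28 for Odc1, -0.46 and 0.59 for Eef2, -0.54 and 0.21 for Rpl41, -0.65 and 0.013 for Atf4, -0.53 and 0.38 for Vim, -0.14 and 2.11 for Psma4 and -0.40 and 2.27 for the macrophage and lysosomal protease Ctss. The cause was not tested. Medians of the ribosomal protein, other 5′ TOP, secreted, cholesterol, proteasome, oxidative phosphorylation, mitochondrial ribosomal, feedback and immediate-early lists kept their sign in the 24 alternatives, and ranged from 0.17 to 0.94 for ribosomal proteins. Medians of the G1 cyclin, interferon, actin, initiation factor, glycolysis, polyamine, iron-responsive, ribosome biogenesis and FoxO-linked lists did not. With 1 array left out they ranged from -0.23 to 0.44 for G1 cyclins, from -0.071 to 0.80 for interferon-stimulated genes, from -0.027 to 0.20 for actin genes, from -0.024 to 0.14 for initiation factors and from -0.16 to 0.21 for glycolysis. Low signal on the undertranslated arrays, of which 43.4% to 53.5% of probe sets were above background, limits all of these values.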
